A study of Homo sapiens with 118 samples.

Results

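The data described here are the TempO-Seq counts of 10 genes of the canonical Wnt pathway in HepaRG cells exposed to histone deacetylase (HDAC) inhibitors. The genes were AXIN2, RNF43, ZNRF3, LGR5, NKD1, DKK1, DACT1, DACT3, TCF7 and LEF1, which are known targets or antagonists of the pathway. Members were the rows of the count table whose name, without its trailing probe number, was 1 of these symbols. The 10 genes had 11 such rows (called features, 1 for each detector probe) out of 22068 features for 19470 genes. DACT3 had 2 probes, DACT3_88414 and DACT3_90228, and the other genes had 1 each. HepaRG is an established human hepatic cell line that takes on hepatocyte functions when differentiated, and TempO-Seq counts transcripts through pairs of short probes that are ligated on the target RNA and sequenced.

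The 118 libraries made 40 groups, given by 8 inhibitors at 5 concentrations (C1, the lowest, to C5), with exposure for 72 h and daily renewal of the chemical. Concentrations ran from 0.041722 to 0.86 µM for apicidin, 0.177222 to 3.9 µM for mocetinostat, 0.001468 to 0.084 µM for panobinostat and 4.94 to 94.5 µM for scriptaid. They ran from 1.143333 to 44 µM for tacedinaline, 0.018811 to 1.5237 µM for trichostatin A and 0.404778 to 23.5 µM for vorinostat. The sample labels of valproic acid ran from 100.478 to 3038 µM, but the treatment protocol lists values smaller by 3 orders of magnitude, so its unit was not settled. Each group had 3 libraries, 1 from each of 3 batches of HepaRG cells, except panobinostat C3 and trichostatin A C4, which had 2, without batch 3. Scriptaid, tacedinaline and vorinostat were on the plate labelled E and the other 5 chemicals on the plate labelled H, so each comparison within a chemical stayed on 1 plate. Solvent-control libraries were not used here, and every comparison was made against C1 of the same chemical, so a change already complete at C1 would not appear.

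In the canonical pathway, Wnt ligands bound to Frizzled and LRP receptors inactivate a cytoplasmic complex, built on axin, that marks beta-catenin for destruction. Stabilised beta-catenin then enters the nucleus and activates genes together with transcription factors of the TCF/LEF family. Several of the genes so activated encode inhibitors that act back on the pathway, at the receptor, on Dishevelled or in the destruction complex. In the liver the pathway is best known for setting the gene expression of pericentral hepatocytes.

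Total counts per library lay between 1061359 and 5250260 (median 3702007). The mean total of vorinostat was 3038900 at C1 and 1485590 at C5, below that of any other chemical at C5. Hepatocyte markers were abundant (ALB had a mean of 53157 counts per library), while PTPRC, LYZ, CDH5, LYVE1 and EPCAM, defining markers of leukocytes, endothelium and biliary epithelium, were at means of 0 to 0.0763 counts. Other markers on those lists were detected, with means of 125 counts for CD68, 25.4 for KDR and 192 for KRT19. The 11 hepatocyte marker features gave 9 to 11 falls at C5 in each of 7 chemicals and 0 in trichostatin A (calls by edgeR), and the summed hepatocyte level ranged from 13175 to 66326 CPM (counts scaled to the effective library size, set by TMM within each chemical) over the C1 libraries and from 3404 to 46822 over the C5 libraries. Of the 3 or 4 biliary marker features tested, 2 rose at C5 in tacedinaline and 1 each in apicidin, mocetinostat, panobinostat and valproic acid, with 0 falls in any chemical. Their summed level ranged from 38.5 to 122 CPM over the C1 libraries and from 34.0 to 115 CPM over the C5 libraries, and in apicidin it went from 52.0 to 63.5 CPM at C1 to 106 to 115 CPM at C5. Batch 3 of trichostatin A C1 stood apart, with a summed hepatocyte level of 13175 CPM against 50847 and 54856 in the other batches. In scriptaid C4, batch 3 had 10223 features with at least 5 counts, against 12367 and 12873 in the other batches. Its effective library size, 0.651 of its total, was the lowest share among the 118 libraries. The part of these shifts and of that scriptaid library in the results on the 10 genes was not tested.

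Of the 10 genes, DACT3, an antagonist that binds Dishevelled, rose with concentration by both of its probes in 6 of the 8 chemicals. The secreted antagonist DKK1 fell at C5 in 4 chemicals, and LEF1, a nuclear partner of beta-catenin, fell by trend in 3. LGR5, a receptor for R-spondins, rose by trend in 3 chemicals. ZNRF3 was not called in any chemical. At C5 no member feature was called as a rise in one chemical and as a fall in another.

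A feature was called when edgeR's quasi-likelihood test gave a Benjamini-Hochberg adjusted p (over all features tested in that chemical) under 0.05 and a change of at least 1.5-fold. The trend was a linear slope on log2 concentration, stated as the change it fits between the lowest and the highest concentration. Between 8 and 10 of the 11 features passed the filter on low counts in each chemical, 72 of 88 combinations of feature and chemical in all. At an unadjusted p under 0.05 there were 32 of the 72 in the trend test (44.4%, against 37.3% of all tests over all features).

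By trend, tacedinaline had 5 rising and 1 falling member features, where 43.3% of all features tested were called (21.8% rising, 21.5% falling). Mocetinostat had 4 and 1 (35.6% called, 17.9% rising, 17.7% falling), apicidin 2 and 2 (34.4%, with 17.2% each way) and vorinostat 2 and 1 (47.4%, 24.4% rising, 23% falling). Valproic acid had 3 rising (14.9%, 7.16% rising, 7.73% falling) and scriptaid 2 rising features (13%, 6.83% rising, 6.18% falling). Panobinostat had 0 by edgeR (17.4%, 8.06% rising, 9.35% falling), with 2 at an unadjusted p under 0.05 and 2 called by DESeq2. Trichostatin A had 0 by edgeR (0.0616%, 0.0154% rising, 0.0462% falling), with 1 at an unadjusted p under 0.05 and 0 by DESeq2.

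At C5 against C1, 14 combinations rose and 8 fell. Vorinostat had 3 rising and 3 falling features (47.5% of all features, 22.7% rising, 24.9% falling), mocetinostat 3 and 1 (30.5%, 14.8% rising, 15.7% falling), tacedinaline 3 and 1 (38.8%, 18.7% rising, 20.1% falling) and apicidin 1 and 2 (28.8%, 13.8% rising, 15% falling). Scriptaid had 2 and 1 (29.8%, 12.8% rising, 17% falling) and valproic acid 2 rising (11.1%, 4.84% rising, 6.22% falling). Panobinostat had 0 by edgeR (16.2%, 6.77% rising, 9.46% falling) and 1 by DESeq2, and trichostatin A had 0 by both tools (0.0154%, 0% rising, 0.0154% falling), with 2 features each at an unadjusted p under 0.05. The median change over all features tested lay between -0.00 and 0.10 (log2) by trend in the 8 chemicals.

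The lower concentrations gave fewer calls. The share at an unadjusted p under 0.05 was 25.0% of member tests at C3 (16.6% of all tests) and 36.1% at C4 (28.2%). At C2 edgeR called 0 members, with 10 of 72 combinations at an unadjusted p under 0.05 (13.9%, against 6.36% of all tests), and DESeq2 called 1, DACT1 in mocetinostat. Of all features, 0.102% were called at C2 in apicidin, 0.191% in mocetinostat, 0.385% in tacedinaline, 0.0172% in vorinostat and 0% in the others. At C3 the 7 calls were all rises, with 4 in tacedinaline (11.9% of all features, 5.44% rising), 2 in mocetinostat (11.6%, 6.44% rising) and 1 in vorinostat (7.06%, 3.18% rising). The other 5 chemicals had 0 members at C3 by edgeR, against 15.3% of all features in apicidin, 0.00763% in panobinostat, 1.34% in scriptaid, 1.13% in valproic acid and 0% in trichostatin A. Each of these 5 had 1 to 3 member features at an unadjusted p under 0.05 at C3, and DESeq2 called 1, in apicidin.

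At C4 there were 14 rises and 1 fall. Tacedinaline had 4 rising features (32.8% of all features called, 16.3% rising), mocetinostat 3 (23.7%, 12.1% rising), valproic acid 3 (11.9%, 5.51% rising) and vorinostat 3 (32.3%, 15.6% rising). Apicidin had 1 rise and 1 fall (22.3%, 11.1% rising, 11.2% falling). Panobinostat, scriptaid and trichostatin A had 0 by edgeR, against 2.56%, 4.87% and 0% of all features. At C4 an unadjusted p under 0.05 was seen for 0, 1 and 1 member features in these chemicals, and DESeq2 called 1, in scriptaid.

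The C5 and C1 libraries of a member feature often did not overlap, as was common over all features tested. The shares in parentheses are over features that passed the low-count filter. The member counts also hold features that did not pass it, such as LGR5 and TCF7 in apicidin, so counts and shares cover unlike sets. Of the 11 features, 3 were higher and 3 lower without overlap in apicidin (23.9% and 25.1% of all features tested) and 4 and 2 in mocetinostat (27.2% and 24.9%). In panobinostat the counts were 2 and 1 (20.3% and 21.7%) and in scriptaid 2 and 2 (26.2% and 28.1%). The counts were 3 and 1 in tacedinaline (25.4% and 25.9%), 0 and 2 in trichostatin A (5.3% and 5.06%), 5 and 0 in valproic acid (16.8% each way) and 3 and 3 in vorinostat (28.2% and 30.1%).

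**Figure D1:**
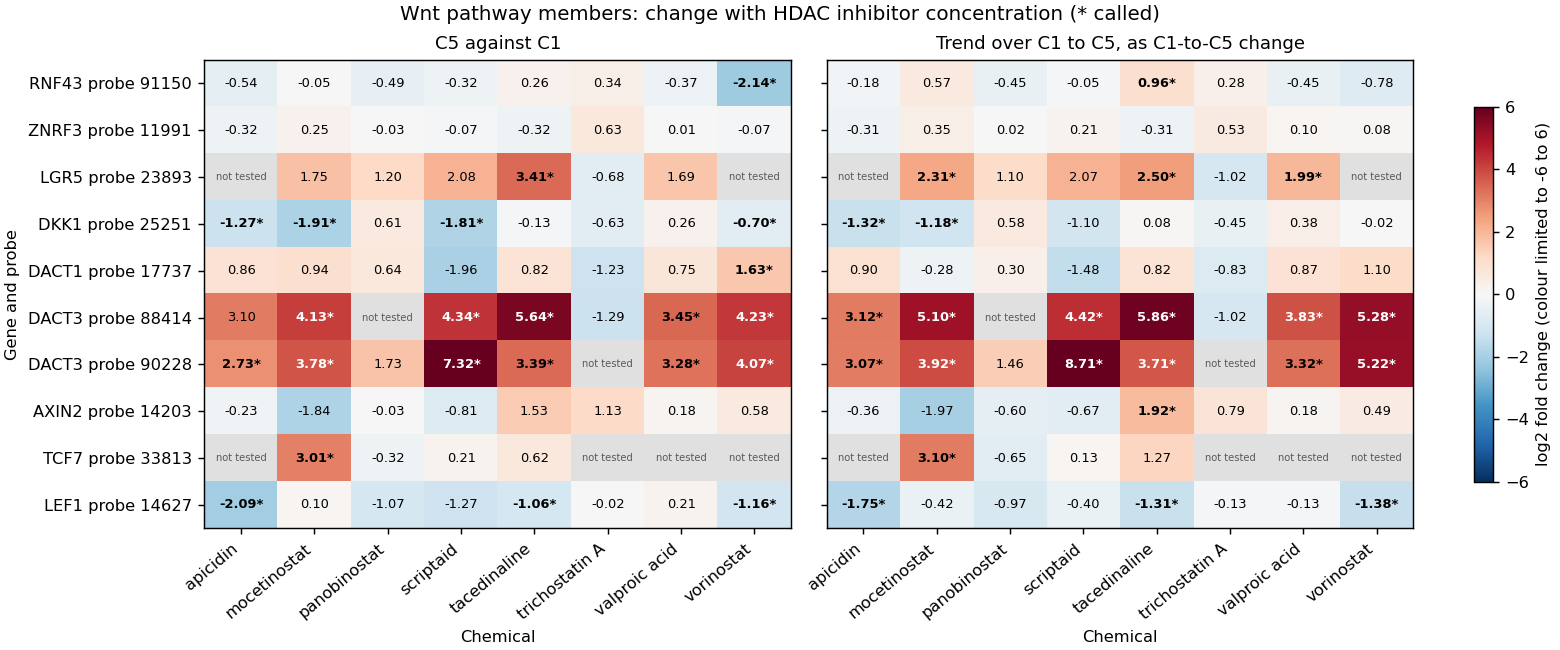
Log2 fold change of each member feature (rows) in each chemical (columns) at C5 against C1 (left) and by the trend over C1 to C5 (right), with red for higher and blue for lower values and grey where the low-count filter removed the feature. Bold values with an asterisk were called. Both DACT3 rows are red and called in 6 chemicals by trend, the ZNRF3 row holds no call, and NKD1 is not drawn because it was tested in no chemical.

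RNF43 and ZNRF3 are transmembrane ubiquitin ligases that remove Frizzled from the cell surface. RNF43 was higher at C4 but not at C5 in tacedinaline and fell at C5 in vorinostat. In tacedinaline the RNF43 level was 17.7, 25.0 and 23.5 CPM at C1 (batches 1 to 3), 60.9, 55.9 and 40.7 CPM at C4, and 32.7, 25.2 and 23.4 CPM at C5. All C4 libraries were above all C1 libraries, while C5 overlapped C1. The RNF43 change at C4 was 1.22 (log2, SE 0.28, edgeR adjusted p = 0.000453), its trend was 0.96 (SE 0.30, edgeR adjusted p = 0.00947), and at C5 the change was 0.26 (SE 0.28, edgeR adjusted p = 0.489). Without batch 1 the RNF43 trend was 0.71 and lost its call.

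In vorinostat RNF43 stood at 24.7, 18.7 and 22.8 CPM at C1 and 35.6, 25.9 and 19.6 CPM at C4, then at 5.47, 2.62 and 7.17 CPM at C5. The C5 libraries lay below every other RNF43 library of that chemical, and the change was -2.14 (log2, SE 0.41, edgeR adjusted p = 5.41e-05). It kept its call under every alternative tried, including libraries thinned to equal totals, with changes from -2.50 to -1.88. The trend of RNF43 in vorinostat, -0.78 (SE 0.54), was not called (edgeR adjusted p = 0.237). In the other 6 chemicals the C5 change of RNF43 ran from -0.54 in apicidin to 0.34 in trichostatin A, none of them called. At C4 RNF43 was called only in tacedinaline, but C4 also lay above C1 without overlap in 2 other chemicals. Mocetinostat read 14.2 to 26.1 CPM at C1, 28.9 to 38.4 CPM at C4 and 18.9 to 20.1 CPM at C5. Trichostatin A read 10.5 to 14.1 CPM at C1, 20.2 to 21.7 CPM at C2, 17.7 to 26.8 CPM at C3 and 23.1 to 23.6 CPM at C4. In apicidin, panobinostat, scriptaid, valproic acid and vorinostat C4 overlapped C1.

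**Figure D2:**
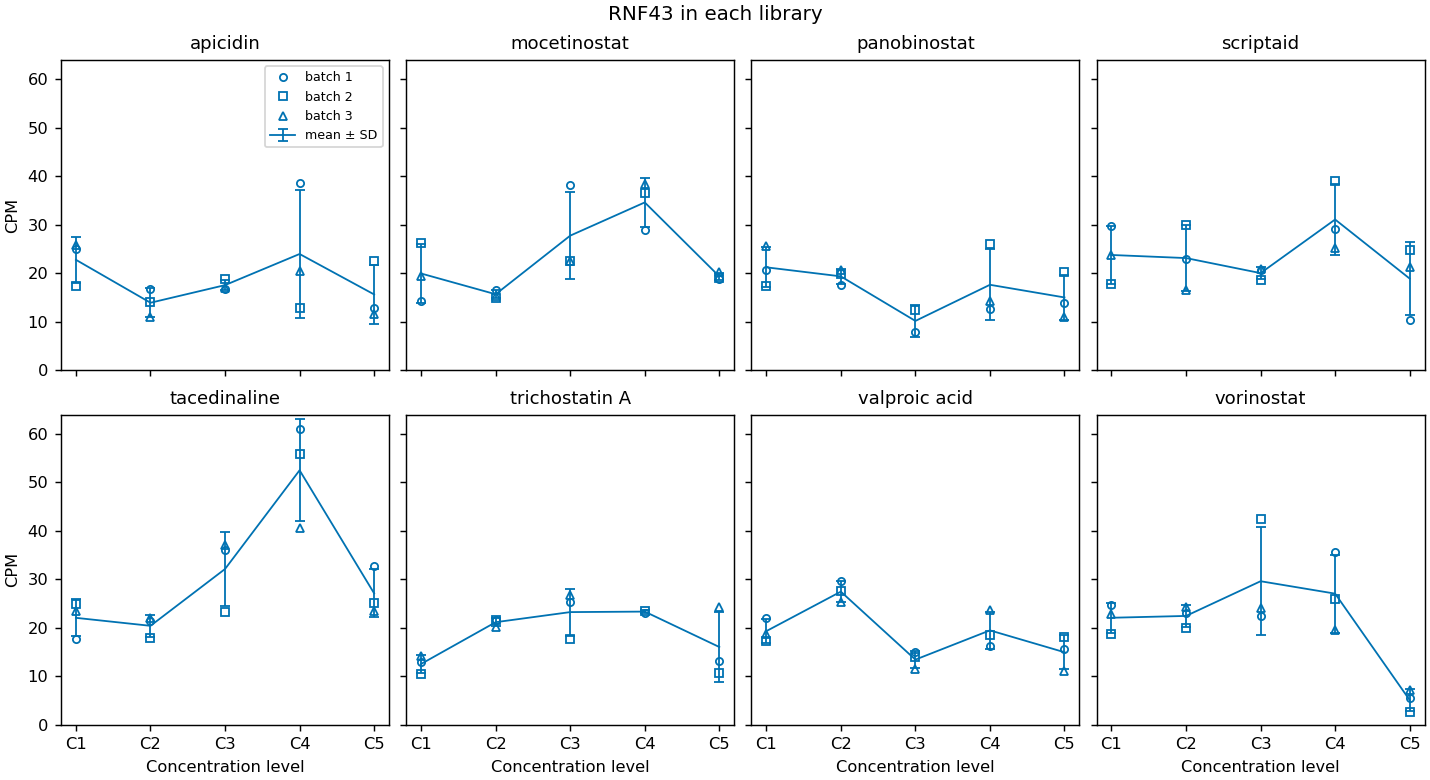
RNF43 level (CPM, vertical axis) at concentration levels C1 to C5 (horizontal axis) in each of the 8 chemicals, with a marker for each library by HepaRG batch and the line and bars giving mean ± SD. The highest mean is tacedinaline C4 (52.5 ± 10.5 CPM) and the lowest is vorinostat C5 (5.09 ± 2.30 CPM).

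ZNRF3 was called at no concentration of any chemical. Its group means lay between 25.0 ± 17.6 CPM (mocetinostat C2) and 54.5 ± 9.44 CPM (scriptaid C4), and the means at C1 lay between 31.0 and 44.9 CPM. The ZNRF3 change at C5 ran from -0.32 to 0.63 (log2), and the lowest edgeR adjusted p among the 8 chemicals was 0.313. In trichostatin A the ZNRF3 libraries read 24.2, 24.1 and 44.7 CPM at C1 and 53.4, 46.4 and 44.1 CPM at C5, so the groups overlapped through batch 3 of C1, the library that stood apart. Without that library the change was 0.98 (SE 0.25, edgeR adjusted p = 0.0652), still not called. The one call of ZNRF3 among all alternatives was at mocetinostat C2 without batch 3 (-1.30, edgeR adjusted p = 0.0254).

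LGR5, a receptor for R-spondins, which shield Frizzled from both ligases, was near the detection limit at C1, with means of 0.617 to 2.21 CPM and at most 38 counts in any library. It rose by trend in tacedinaline (2.50, SE 0.81, edgeR adjusted p = 0.0131), in mocetinostat (2.31, SE 0.71, edgeR adjusted p = 0.0159) and in valproic acid (1.99, SE 0.60, edgeR adjusted p = 0.0225). In tacedinaline LGR5 stood at 0, 1.85 and 0 CPM at C1, at 8.26, 4.34 and 11.1 CPM at C3, and at 12.0, 4.89 and 7.65 CPM at C5. The C3 and C5 libraries were all above C1, and LGR5 was called at C3 (3.37, SE 0.91), C4 (2.55, SE 0.92) and C5 (3.41, SE 0.91, edgeR adjusted p = 0.00213). The calls at C3 and C4 were lost without batch 1 (3.07 and 1.94) or batch 3 (2.33 and 2.08), and that at C4 with thinned libraries (2.30).

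In valproic acid LGR5 read 0, 1.57 and 2.48 CPM at C1 and 6.31, 2.93 and 3.51 CPM at C5. In mocetinostat it read 0.979, 1.90 and 0.996 CPM at C1, 5.76, 8.08 and 4.86 CPM at C3 and 2.55, 2.28 and 8.59 CPM at C5, with its highest mean at C3. Groups at C1 and C5 did not overlap in either chemical. Each of these LGR5 trends lost its call without batch 1 (1.88 in tacedinaline, 2.09 in mocetinostat, 1.36 in valproic acid), and so did the C5 call in tacedinaline (2.76). The mocetinostat trend was also lost without batch 3 (2.16), and that of valproic acid without batch 2 (2.02) or with concentration level in place of log2 concentration (1.98). The C5 change of LGR5 in tacedinaline without batch 2, the only batch with LGR5 reads at C1, was 7.62, a fitted value that is no bound. LGR5 was not tested in apicidin and vorinostat because of its low counts.

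DKK1 is a secreted protein that blocks the LRP co-receptors. It was lower at C5 than at C1 in apicidin, mocetinostat, scriptaid and vorinostat, and in tacedinaline and vorinostat it was first higher at intermediate concentrations. The 250 bases before the annotated DKK1 start (RefSeq, GRCh38.p14, chr10:52314031-52314280, plus strand) are shown because they hold 2 matches to a TCF/LEF-type motif. Capitals mark the matches, none of which overlap. Both strands were searched. The TCF/LEF type was taken as CTTTGAA or one of its variants, which were CTTTGAT and next to it the variant CTTTGTA and also the variant CTTTGTT. The GC box was GGGCGG, and as the TATA box served TATAAA.
DKK1: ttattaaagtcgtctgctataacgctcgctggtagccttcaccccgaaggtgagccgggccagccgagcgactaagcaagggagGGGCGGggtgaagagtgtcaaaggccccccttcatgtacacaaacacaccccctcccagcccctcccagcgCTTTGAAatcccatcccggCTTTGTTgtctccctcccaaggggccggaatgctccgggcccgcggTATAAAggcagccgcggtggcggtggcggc
Of 35116 annotated windows of the same 250 bases, 12.0% held a TCF/LEF-type match, 42.6% a GC box and 10.7% a TATA box. Windows were found for 6 of the 10 member genes, 11 windows in all, and DKK1 was the only member with a TCF/LEF-type match, a GC box and a TATA box in 1 window. A window of DACT1 and a window of TCF7 also held 1 TCF/LEF-type match each. The share of all windows that hold these motifs together was not counted. A match is a description of the letters and does not show binding.

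In apicidin DKK1 read 106, 98.7 and 127 CPM at C1, 56.7, 81.6 and 69.4 CPM at C4 and 51.6, 46.1 and 40.0 CPM at C5. The C4 and C5 libraries were all below C1. The DKK1 trend was -1.32 (SE 0.30, edgeR adjusted p = 0.00129) and the C5 change -1.27 (SE 0.20, edgeR adjusted p = 5.78e-05), both kept under every alternative. The C4 change, -0.67 (SE 0.20, edgeR adjusted p = 0.0163), lost its call without batch 1 (-0.57) or batch 3 (-0.59). In these bulk lysates fewer cells of a type and less RNA per cell cannot be told apart.

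In mocetinostat the DKK1 libraries read 122, 144 and 153 CPM at C1 and 18.9, 36.4 and 56.6 CPM at C5, with no overlap. The C5 change was -1.91 (SE 0.35, edgeR adjusted p = 0.000592). The DKK1 trend in mocetinostat was -1.18 (SE 0.45, edgeR adjusted p = 0.0483) and lost its call with batch as a block (-1.18) or without batch 2 (-1.09) or batch 3 (-1.24).

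In scriptaid DKK1 stayed near its C1 level (72.6, 98.8 and 72.0 CPM) up to C3 (84.4, 100.4 and 85.9 CPM), read 88.9, 47.5 and 29.8 CPM at C4 and 22.6, 23.4 and 23.4 CPM at C5. All C5 libraries were below all others of that chemical. The C5 change was -1.81 (SE 0.32, edgeR adjusted p = 0.000328), and the linear trend of DKK1, -1.10 (SE 0.46), was not called (edgeR adjusted p = 0.127).

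Vorinostat gave a rise followed by a fall. DKK1 read 75.8, 54.0 and 74.9 CPM at C1, 104, 173 and 140 CPM at C3, 87.5, 122 and 161 CPM at C4 and 44.7, 30.3 and 51.5 CPM at C5. The C3 and C4 libraries were all above C1 and the C5 libraries all below it. DKK1 changed by 1.03 at C3 (SE 0.24, edgeR adjusted p = 0.00441), 0.88 at C4 (SE 0.23, edgeR adjusted p = 0.00321) and -0.70 at C5 (SE 0.26, edgeR adjusted p = 0.0221). The C5 call was lost without batch 1 (-0.69) or batch 2 (-0.64), and the C3 and C4 calls without batch 2 (0.68 and 0.72).

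Tacedinaline showed the rise of DKK1 without the fall below C1. The libraries read 121, 91.9 and 119 CPM at C1, 193, 157 and 186 CPM at C3 and 89.4, 103 and 108 CPM at C5. The change at C3 was 0.70 (SE 0.17, edgeR adjusted p = 0.00258) and at C5 -0.13 (SE 0.17, edgeR adjusted p = 0.559), and C5 overlapped C1. Without batch 2 the C3 change of DKK1 was 0.66 and was not called.

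Panobinostat went the other way for DKK1, with 54.8, 61.2 and 70.1 CPM at C1 and 100.4, 78.4 and 104 CPM at C5. The groups did not overlap, but the DKK1 change of 0.61 (SE 0.21, edgeR adjusted p = 0.0519) was not called. It was called under 6 of the alternatives, with 0.62 by DESeq2 (adjusted p = 0.0284). In valproic acid DKK1 lay between 34.5 and 68.7 CPM in all libraries, with a C5 change of 0.26 (SE 0.22, edgeR adjusted p = 0.537). In trichostatin A the DKK1 value of batch 3 at C1, 190 CPM, stood far above 60.7 and 61.3 CPM in the other batches, and the C5 change turned from -0.63 to 0.13 without it, neither of them called.

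**Figure D3:**
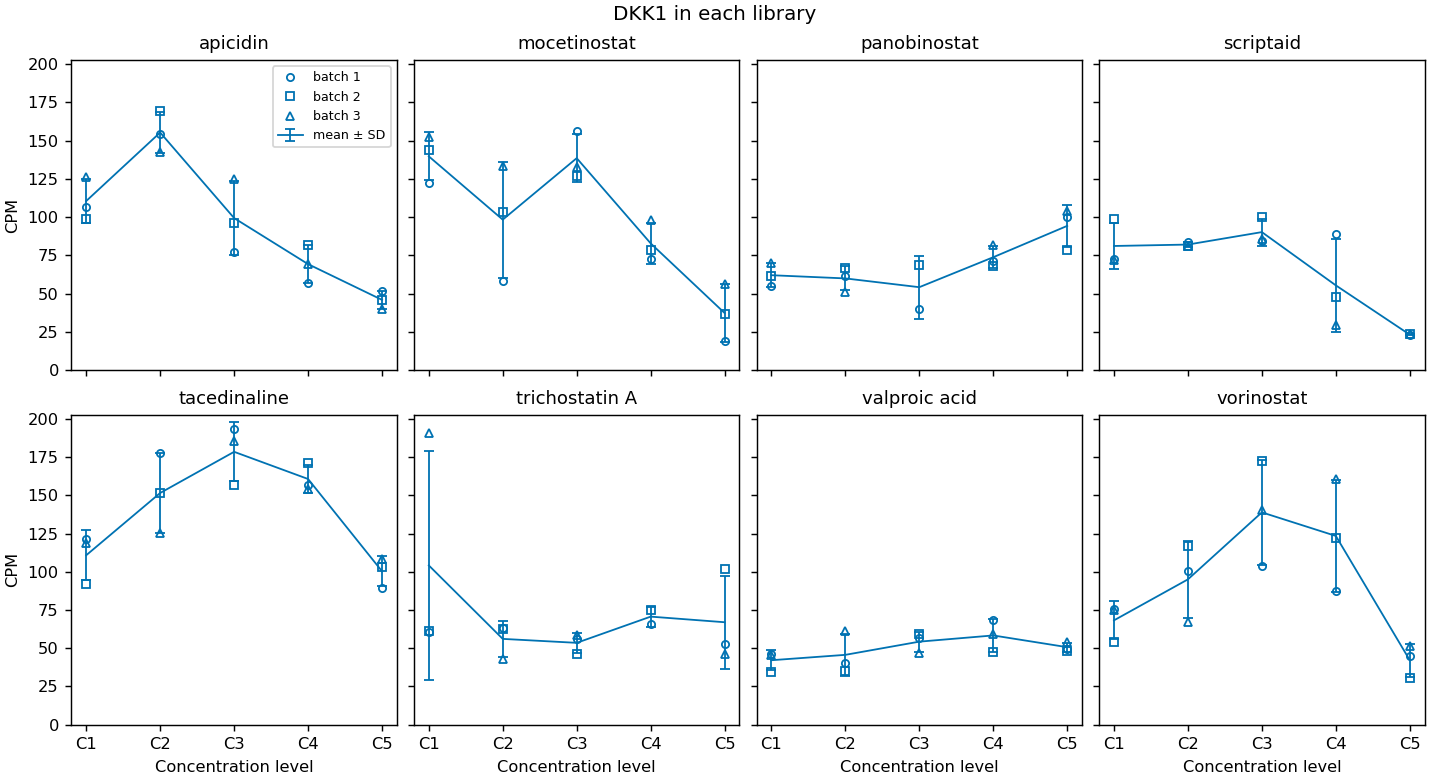
DKK1 level (CPM, vertical axis) at C1 to C5 (horizontal axis) in each chemical, with a marker for each library by HepaRG batch and the line and bars giving mean ± SD. The 3 scriptaid C5 libraries lie at 22.6 to 23.4 CPM, the lowest group mean, and vorinostat rises to C3 before it drops below C1 at C5.

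NKD1, DACT1 and DACT3 bind Dishevelled, the protein that relays the signal from Frizzled. NKD1 had at most 15 counts in any library and at most 3 counts per library in 26 of 40 groups, and it passed the filter in no chemical. Its highest group mean was 2.88 ± 2.02 CPM, at vorinostat C4. In valproic acid NKD1 had 0 CPM in each C1 library and 1.74, 1.22 and 1.46 CPM at C5, at least 1.92-fold higher when C1 is set to the floor of 3 counts per library. C1 was at that floor in 7 of the 8 chemicals, so changes of NKD1 in either direction were mostly not detectable at this depth.

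DACT1 was called in 2 places. In valproic acid it read 3.09, 5.65 and 8.94 CPM at C1 and 16.4, 8.87 and 20.5 CPM at C4, groups that overlapped, and it changed by 1.37 (SE 0.42, edgeR adjusted p = 0.0349). Without batch 1 the DACT1 change was 0.98 and without batch 3 it was 1.57, neither of them called. In vorinostat DACT1 read 2.87, 1.82 and 4.82 CPM at C1 and 5.47, 18.8 and 4.56 CPM at C5, also overlapping, with a change of 1.63 (SE 0.69, edgeR adjusted p = 0.0474). Batch 2 held the high C5 value, and the DACT1 change without batch 3 was 2.46. Without batch 2, and with thinned libraries, DACT1 did not pass the low-count filter in vorinostat. The call was therefore not checked without the library at 18.8 CPM. This DACT1 call was lost with batch as a block (1.52), with RLE scaling (1.60), without the low-count filter (1.55) and without batch 1 (1.81).

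DACT1 also had its highest group mean, 25.9 ± 15.7 CPM, at mocetinostat C2, with libraries at 38.9, 30.2 and 8.47 CPM against 6.61, 4.64 and 8.72 CPM at C1. In batch 3 the C2 value was below the C1 value. The change was 1.95 (SE 0.53, edgeR adjusted p = 0.106), and DACT1 was called there by DESeq2 (1.92, adjusted p = 0.0199) and by edgeR without batch 3 (2.61, adjusted p = 0.00563).

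DACT3 rose from a few counts to a clear signal in 6 chemicals. The 250 bases before 1 of its 2 annotated starts (RefSeq, GRCh38.p14, chr19:46661183-46661432, minus strand) are shown for the gene with the most calls. They hold 4 matches to the GC box, marked in capitals, 28 CpG dinucleotides and no TCF/LEF-type match or TATA box among the letters searched.
DACT3: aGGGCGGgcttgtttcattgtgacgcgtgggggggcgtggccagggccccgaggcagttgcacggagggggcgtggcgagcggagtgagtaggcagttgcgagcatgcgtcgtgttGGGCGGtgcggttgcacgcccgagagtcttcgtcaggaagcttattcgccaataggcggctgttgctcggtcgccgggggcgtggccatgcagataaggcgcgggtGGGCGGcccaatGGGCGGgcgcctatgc
The GC content of this window was 68.4%, against 62.8% in that of DKK1. The window of the other annotated DACT3 start held 1 GC box and 5 CpG dinucleotides.

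In tacedinaline DACT3_90228 read 1.77, 2.47 and 2.29 CPM at C1, 13.5, 9.76 and 4.32 CPM at C3, 20.6, 19.2 and 25.1 CPM at C4 and 21.3, 19.6 and 31.5 CPM at C5. All libraries from C3 on were above C1. The DACT3_90228 trend was 3.71 (SE 0.41, edgeR adjusted p = 4.87e-08), and the probe was called at C3, C4 and C5 (3.39 at C5, SE 0.51, edgeR adjusted p = 5.68e-07). The C3 call was lost without batch 1 (1.57) or batch 2 (2.08). DACT3_88414 gave 1.77, 0 and 0.510 CPM at C1 and 15.8, 34.6 and 32.0 CPM at C5. As C1 was at the floor of 3 counts per library, the rise of this probe at C5 was at least 18.9-fold (edgeR adjusted p = 1.46e-07). Its C3 change of 2.83 lost its call with thinned libraries (2.74) and without batch 1 (3.07), 2 (2.47) or 3 (2.86).

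Mocetinostat gave a similar series for DACT3. DACT3_90228 read 3.43, 1.26 and 3.24 CPM at C1, 13.4, 11.9 and 13.3 CPM at C3, 26.1, 14.6 and 25.7 CPM at C4 and 34.1, 36.9 and 37.6 CPM at C5. The C3, C4 and C5 libraries were all above C1, with a change of 2.29 at C3 (not called without batch 2, 2.00) and 3.78 at C5 (SE 0.43, edgeR adjusted p = 6.92e-06). DACT3_88414 read 0, 0 and 1.74 CPM at C1 and 7.65, 14.9 and 8.29 CPM at C5. Its change was 4.13 (SE 1.01, edgeR adjusted p = 0.00531), or 3.15 without batch 2, where it was not called, and 8.50 without batch 3, where C1 held no reads. The calls of this probe at C3 (3.53) and C4 (4.27) were lost without batch 1 (3.05 and 3.17) or batch 2 (2.42 and 3.89), and that at C3 with thinned libraries (3.11).

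In vorinostat DACT3 was not called at C2 or C3 and rose at C4 and C5. DACT3_90228 read 1.72, 1.30 and 0.964 CPM at C1, 2.95, 3.80 and 0.687 CPM at C3, 17.8, 7.71 and 11.4 CPM at C4 and 32.8, 13.6 and 21.5 CPM at C5. The change at C5 was 4.07 (SE 0.70, edgeR adjusted p = 9.72e-06). DACT3_88414 read 1.72, 0.519 and 1.93 CPM at C1 and 25.5, 20.9 and 30.6 CPM at C5, with a change of 4.23 (SE 0.75, edgeR adjusted p = 1.58e-05). In both probes the C4 and C5 libraries were all above C1. The C4 call of DACT3_88414 (2.76) was lost without batch 1 (2.40) or batch 2 (2.27).

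In scriptaid DACT3 was called at C5 and at no lower concentration. DACT3_90228 read 0, 0.492 and 0 CPM at C1, 0.461, 2.48 and 3.14 CPM at C4 and 35.8, 33.1 and 40.6 CPM at C5. The C4 group was not called and overlapped C1, and the C5 mean of 36.5 ± 3.81 CPM was the highest of this probe in any group. With C1 at the floor the rise was at least 42.3-fold (edgeR adjusted p = 3.72e-06). DACT3_88414 read 1.28, 2.21 and 0.298 CPM at C1, 0, 0.931 and 0 CPM at C4 and 18.1, 22.8 and 40.1 CPM at C5, with a C5 change of 4.34 (SE 0.87, edgeR adjusted p = 0.000971). The trend of DACT3_88414, 4.42 (SE 1.34, edgeR adjusted p = 0.0351), lost its call with batch as a block (4.40), by DESeq2 (3.94) and without batch 1 (4.52), 2 (5.49) or 3 (3.49). The C5 calls of both probes in scriptaid were kept under every alternative.

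In apicidin DACT3_90228 read 3.58, 2.45 and 1.28 CPM at C1, 14.8, 10.8 and 10.7 CPM at C4 and 23.4, 10.2 and 16.2 CPM at C5, with no overlap of C4 or C5 with C1. The change at C5 was 2.73 (SE 0.47, edgeR adjusted p = 0.000133). DACT3_88414 was lower, with 0.397, 0.889 and 0 CPM at C1 and 4.99, 4.65 and 2.35 CPM at C5. Its C5 change of 3.10 (SE 1.28, edgeR adjusted p = 0.072) was not called, and its trend of 3.12 (SE 1.07, edgeR adjusted p = 0.0238) was lost without batch 1 (2.66) or batch 2 (2.71).

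In valproic acid DACT3_90228 read 0.206, 0.627 and 2.23 CPM at C1, 8.29, 7.05 and 14.9 CPM at C4 and 3.26, 15.6 and 11.4 CPM at C5, above C1 in every library. The change was 3.27 at C4 (SE 0.75, edgeR adjusted p = 0.00554) and 3.28 at C5 (SE 0.75). DACT3_88414 read 0.824, 0.314 and 0 CPM at C1 and 5.22, 2.45 and 6.43 CPM at C5, with a change of 3.45 (SE 0.88, edgeR adjusted p = 0.0122). The C4 calls of DACT3_90228 and DACT3_88414 (3.22) were lost without batch 1 (2.85 and 4.76), and that of DACT3_88414 also without batch 2 (2.52) or 3 (2.90). The C5 call of DACT3_90228 was lost without batch 1 (3.16) or batch 2 (2.60), and that of DACT3_88414 without any 1 of batches 1 (4.66), 2 (3.65) and 3 (2.62). The trends of both DACT3 probes, 3.83 and 3.32, kept their calls under every alternative.

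Panobinostat and trichostatin A gave no call for DACT3. In panobinostat DACT3_88414 did not pass the low-count filter, so it was not tested. It read 0, 0.209 and 0 CPM at C1, at the floor of 3 counts per library, and 1.09, 1.40 and 2.93 CPM at C5, without overlap and higher in each batch, at least 2.47-fold higher with C1 at the floor. Panobinostat had 1.90, 1.05 and 0 CPM of DACT3_90228 at C1 and 5.18, 1.87 and 3.46 CPM at C5, groups that overlapped, with a change of 1.73 (SE 1.11, edgeR adjusted p = 0.316). Trichostatin A had 2.52, 1.74 and 5.09 CPM at C1 and 0, 0 and 1.20 CPM at C5. Each batch was lower at C5 than at C1, and the probe was below the filter there. The group means of DACT3_90228 in trichostatin A were 3.12 CPM at C1, 0.154 at C2, 0.591 at C3, 1.58 at C4 and 0.400 at C5. Its lowest mean was thus at C2, and the level did not fall steadily with concentration. DACT3_88414 in trichostatin A changed by -1.29 (SE 1.46, edgeR adjusted p = 0.842).

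Both probes target DACT3, and their group means of log2 CPM (prior count 2) had a Pearson's r of 0.879 over the 40 groups, which share plates, batches and depth. They differed in size, since DACT3_90228 read higher than DACT3_88414 in every C5 library of apicidin and mocetinostat, while in tacedinaline and vorinostat their C5 ranges overlapped. Features of other genes with the most similar pattern over the 40 groups included PGM2L1 (r = 0.939) and PIP4K2A (0.913) for DACT3_88414, and ARL15 (0.940), PIP4K2A (0.932) and GIPC1 (0.920) for DACT3_90228. Such patterns were common, because 416 and 490 of 11624 candidate features had an r over 0.8.

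**Figure D4:**
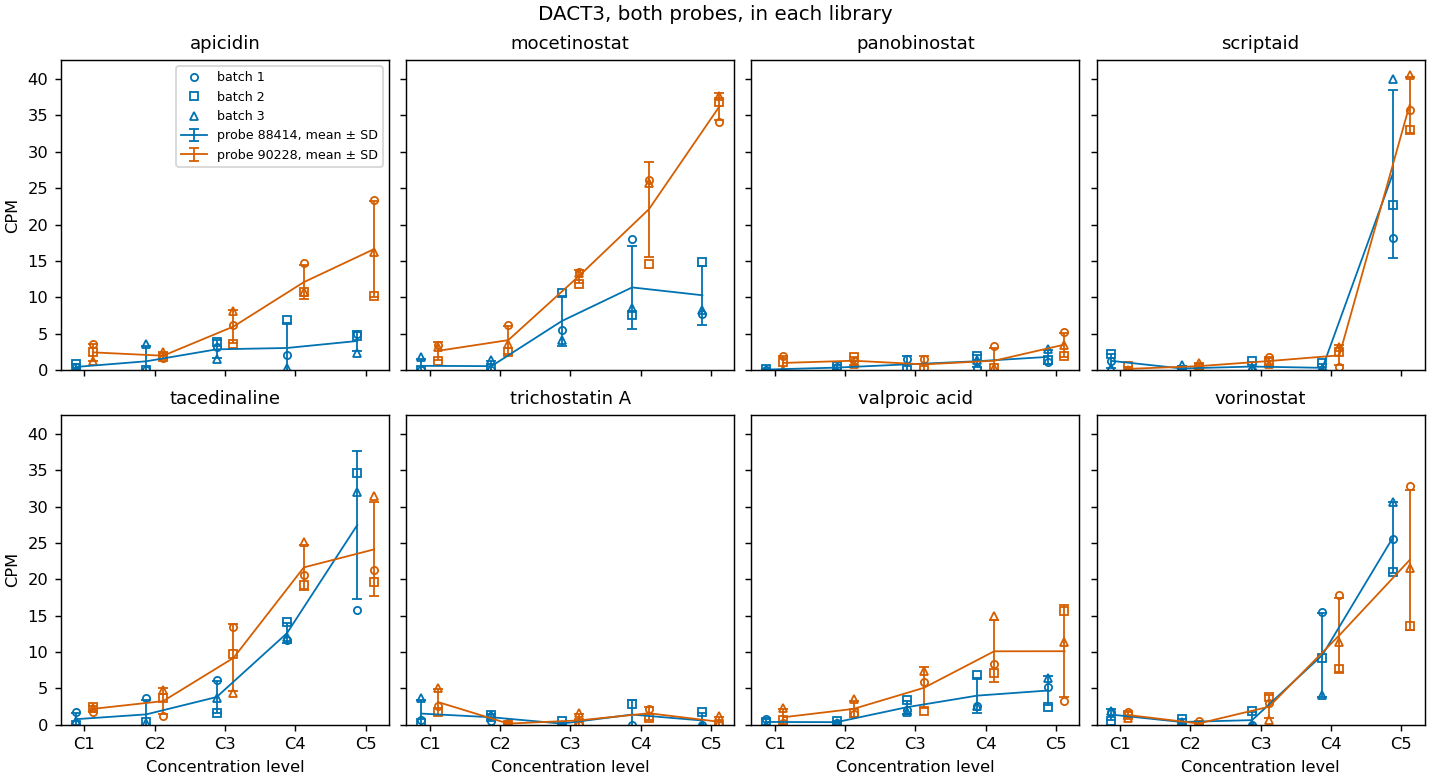
Levels of both DACT3 probes (CPM, vertical axis) at C1 to C5 (horizontal axis) in each chemical, with a marker for each library by HepaRG batch (circle 1, square 2, triangle 3) and lines and bars giving mean ± SD. The first concentration with a call is C3 in mocetinostat and tacedinaline, C4 in vorinostat and C5 in scriptaid, and trichostatin A stays at or below 5.09 CPM.

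AXIN2, the scaffold of the destruction complex and a commonly used readout of beta-catenin activity, was called once. Its group means lay between 1.17 ± 1.34 CPM (scriptaid C3) and 10.1 ± 8.49 CPM (mocetinostat C2), and no library had more than 73 counts. In tacedinaline AXIN2 read 0.887, 4.01 and 3.57 CPM at C1, 11.2, 9.74 and 7.81 CPM at C4 and 2.72, 9.78 and 14.4 CPM at C5. The C4 libraries were all above C1 (change 1.60, SE 0.70, edgeR adjusted p = 0.0681), while C5 overlapped it, and the trend was 1.92 (SE 0.60, edgeR adjusted p = 0.0098), kept under every alternative. The C5 change of AXIN2 itself, 1.53 (SE 0.70, edgeR adjusted p = 0.0776), was not called.

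In mocetinostat AXIN2 pointed down, with 9.54, 4.43 and 4.23 CPM at C1 and 2.80, 1.01 and 1.19 CPM at C5. The groups did not overlap, but the change of -1.84 (SE 0.89, edgeR adjusted p = 0.132) was not called. In the other 6 chemicals the C5 change of AXIN2 ran from -0.81 in scriptaid to 1.13 in trichostatin A, with no call. The SE of the AXIN2 change at C5 was 0.63 to 0.90 in the 8 chemicals.

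TCF7 and LEF1 encode DNA-binding partners of beta-catenin and are themselves induced by the pathway in many cells. TCF7 was tested in only 4 chemicals, since its counts were low (at most 40 in any library). It rose in mocetinostat, from 0.734, 0.422 and 1.99 CPM at C1 to 4.05, 3.78 and 10.4 CPM at C4 and 9.68, 5.06 and 11.0 CPM at C5. No C4 or C5 library of mocetinostat overlapped C1, and the TCF7 trend was 3.10 (SE 0.58, edgeR adjusted p = 0.000386), kept under every alternative. The C5 change of 3.01 (SE 0.71, edgeR adjusted p = 0.00404) lost its call without batch 1 (2.67), and the C4 change of 2.52 without batch 1 (2.49), 2 (2.38) or 3 (2.71).

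TCF7 was not called in the other 3 chemicals where it was tested, and of the differences in its C5 change between mocetinostat and the other 7 only that from apicidin passed the test (edgeR adjusted p = 0.0326, a fitted value with C5 at 0 in apicidin, the others 0.0896 to 0.418). In apicidin, where TCF7 was not tested, it read 0.199, 0.222 and 0.768 CPM at C1 and 0 CPM in all C5 libraries, both groups at or under the floor of 3 counts per library. The TCF7 trends in panobinostat (-0.65, SE 0.97), scriptaid (0.13, SE 0.84) and tacedinaline (1.27, SE 0.80) were not called. In tacedinaline TCF7 read 1.77, 2.77 and 1.02 CPM at C1, 5.58, 7.69 and 2.93 CPM at C4 and 0.545, 0.376 and 7.65 CPM at C5, so that C4 lay above C1 and C5 overlapped it.

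LEF1 fell by trend in apicidin, tacedinaline and vorinostat, and its fitted trend was below 0 in all 8 chemicals, from -1.75 to -0.13. In apicidin LEF1 read 8.15, 8.45 and 20.5 CPM at C1 and 2.49, 3.49 and 2.59 CPM at C5, with no overlap. The C5 change was -2.09 (SE 0.51, edgeR adjusted p = 0.00372) and the LEF1 trend -1.75 (SE 0.43, edgeR adjusted p = 0.00215). Batch 3 had the high value at C1, and without it the C5 change was -1.48 and the trend -1.21, neither of them called.

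In tacedinaline LEF1 read 13.3, 14.2 and 11.7 CPM at C1, 19.0, 22.7 and 17.3 CPM at C2, where it was not called, 8.15, 6.92 and 9.44 CPM at C4 and 4.36, 8.65 and 5.40 CPM at C5. The C4 and C5 libraries were all below C1. The LEF1 trend was -1.31 (SE 0.38, edgeR adjusted p = 0.00543) and was lost with libraries thinned to equal totals (edgeR adjusted p = 0.0612). The C5 change of -1.06 (SE 0.43, edgeR adjusted p = 0.0455) was lost in 5 of 9 alternatives, among them the fits without batch 1 (-0.88), 2 (-1.33) or 3 (-1.06).

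In vorinostat LEF1 read 12.6, 18.4 and 17.0 CPM at C1 and 5.47, 11.5 and 3.91 CPM at C5, again without overlap. The trend was -1.38 (SE 0.41, edgeR adjusted p = 0.00757), or -1.29 without batch 3, where it was not called. The C5 change of LEF1, -1.16 (SE 0.49, edgeR adjusted p = 0.045), was lost without batch 1 (-1.20), without batch 3 (-0.83) and with thinned libraries (-0.83).

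LEF1 was also lower at C5 in panobinostat (13.5, 25.9 and 17.8 CPM at C1, 8.18, 8.19 and 10.9 CPM at C5, change -1.07, SE 0.40, edgeR adjusted p = 0.0717) and scriptaid (change -1.27, SE 0.49, edgeR adjusted p = 0.0605). Neither change passed the test, although the LEF1 groups did not overlap in either chemical. Its highest group mean was valproic acid C2, with 29.9, 39.4 and 29.3 CPM against 13.0, 15.7 and 21.8 CPM at C1, a change of 0.97 (SE 0.28, edgeR adjusted p = 0.712). Of the 8 marker features of stellate cells or fibroblasts tested, 4 fell at C5 in apicidin, tacedinaline and vorinostat each, while 1, 1 and 2 rose there. The same number, 4, fell in mocetinostat, where the C5 change of LEF1 was 0.10, in valproic acid, where it was 0.21 and 2 markers rose, and in panobinostat, where 1 rose. Their summed level ran from 173 to 339 CPM over the C1 libraries and from 98.5 to 237 CPM over the C5 libraries, THY1 and COL1A2 had means of 0.110 and 0.475 counts, and their part in the fall of LEF1 was not tested. The feature most similar to LEF1 over the 40 groups was that of KIAA1211L (r = 0.867), followed by MEOX2 (0.861) and ANKRD18A (0.857).

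**Figure D5:**
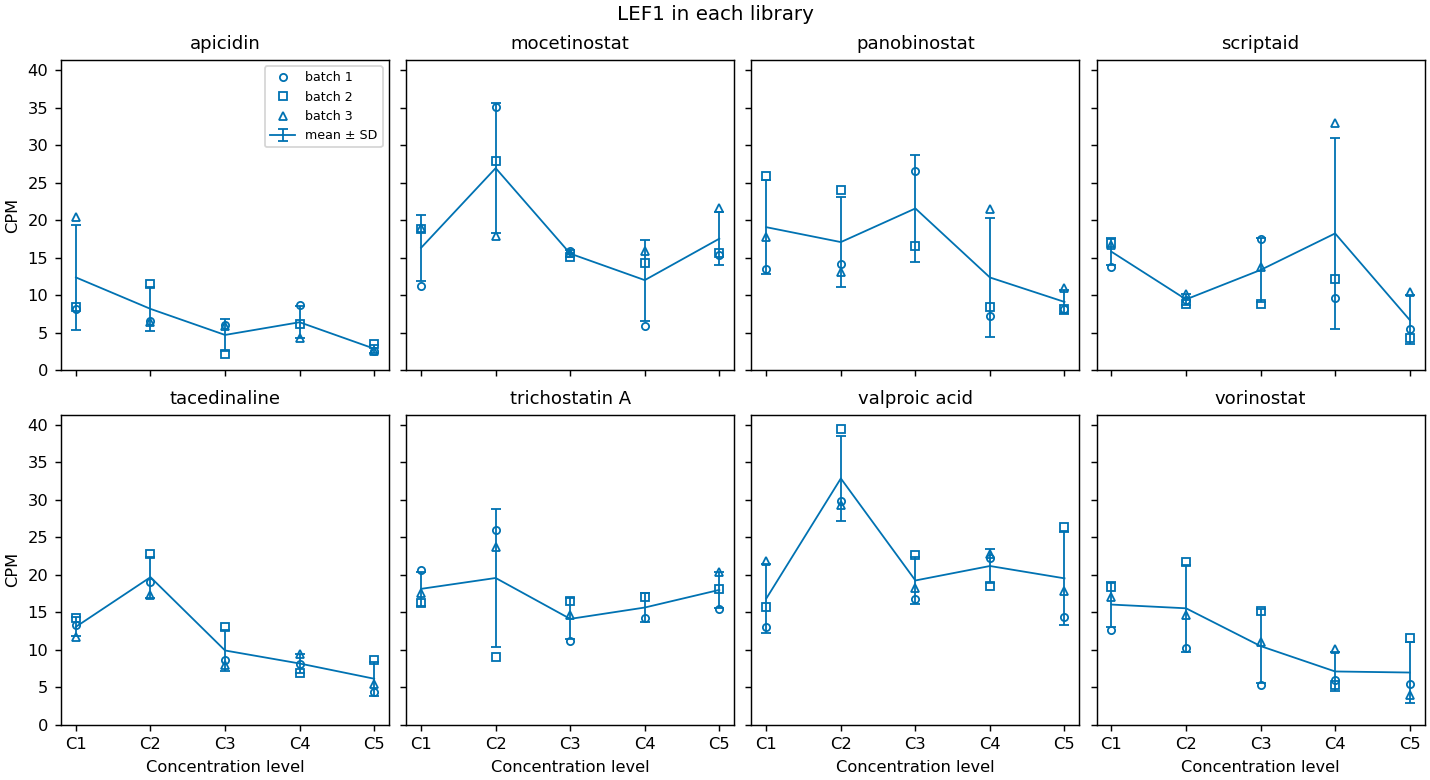
LEF1 level (CPM, vertical axis) at C1 to C5 (horizontal axis) in each chemical, with a marker for each library by HepaRG batch and the line and bars giving mean ± SD. The means fall from C1 to C5 in apicidin, tacedinaline and vorinostat, and the lowest mean is apicidin C5 (2.86 ± 0.550 CPM).

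The remaining members had less similar neighbours. The highest Pearson's r with a feature of another gene, over the same 40 groups, was 0.828 for LGR5 (FAM102B), 0.770 for DKK1 (KRT18), 0.767 for ZNRF3 (THNSL1), 0.748 for TCF7 (DRAXIN), 0.723 for NKD1 (ARGLU1), 0.679 for DACT1 (HIP1), 0.676 for RNF43 (MIF4GD) and 0.580 for AXIN2 (PLEKHG3). Among the members themselves the DACT3 probes were most alike, and LGR5 followed them with r = 0.641 and 0.680. LEF1 ran against DACT3, with r = -0.520 and -0.484. These values describe groups that share libraries and depth.

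The 8 inhibitors fall into structural classes, with hydroxamic acids (panobinostat, scriptaid, trichostatin A and vorinostat), benzamides (mocetinostat and tacedinaline), the cyclic tetrapeptide apicidin and the branched fatty acid valproic acid. No concentration was common to chemicals of 1 class, so their values stand side by side without a test. The 2 benzamides at C5 (3.9 µM mocetinostat and 44 µM tacedinaline) had 36.2 ± 1.83 and 24.1 ± 6.46 CPM of DACT3_90228, 37.3 ± 18.9 and 100.3 ± 9.84 CPM of DKK1, and 1.67 ± 0.988 and 8.97 ± 5.88 CPM of AXIN2. The hydroxamic acids ranged widely at C5 for DACT3_90228, with 3.50 ± 1.65 CPM in panobinostat (0.084 µM), 36.5 ± 3.81 CPM in scriptaid (94.5 µM), 0.400 ± 0.692 CPM in trichostatin A (1.5237 µM) and 22.6 ± 9.66 CPM in vorinostat (23.5 µM).

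Other genes of the pathway were counted in lists, against 12.7% of all tests called by trend in each direction over the 8 chemicals (11.6% rising and 13.4% falling at C5). A feature counted once for each chemical where it was tested, so a few features could make up much of a list's count. Of the 21 receptor falls given next, 6 were those of FZD6. Of the 18 features for Frizzled and other Wnt receptors and co-receptors, 11 or 12 were tested in each chemical, and over the 8 chemicals 2 rises and 21 falls were called by trend among 89 tests, with chemical medians from -0.42 to 0.03 (log2) against -0.00 to 0.10 for all features. FZD6, a Frizzled receptor, fell by trend in 6 chemicals, with -2.02 (SE 0.24, edgeR adjusted p = 7e-07) in vorinostat and -1.76 (SE 0.18, edgeR adjusted p = 3.28e-08) in apicidin. It was not called in scriptaid (-1.01, SE 0.53) or trichostatin A (-0.13, SE 0.14).

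Wnt ligands and R-spondins gave 4 rises and 12 falls among 51 tests, with medians from -0.70 to 0.39. The 22 features for other Wnt antagonists gave 8 rises and 0 falls by trend among 47 tests, with medians from 0.11 to 0.96. At C5 they gave 5 rises and 1 fall. Cytoplasmic transducers gave 15 rises and 6 falls among 132 tests, and nuclear factors 10 rises and 7 falls among 92, with medians within -0.40 to 0.30 in both lists. Other known beta-catenin targets split evenly, with 17 rises and 17 falls among 94 tests. MMP7, a metalloprotease in that list, fell in 7 chemicals, with a median trend of -2.07 over the 8.

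Pericentral liver genes, which beta-catenin is known to control in hepatocytes, gave 6 rises and 42 falls among 75 tests, with medians from -4.43 in tacedinaline to 0.19 in trichostatin A. CYP2E1, a cytochrome P450, fell in 7 chemicals, with a median trend of -4.10. RGN, a calcium-binding lactonase, fell in 7 by RGN_27781 (median -3.74), while its other probe was tested in 2 chemicals and not called. The bile acid enzyme CYP27A1 fell in 7 chemicals by CYP27A1_11888 (median -2.12) and in 4 by its other probe (median -2.46). Both probes of NR1I3, the nuclear receptor CAR, fell in 6. The hepatocyte marker list, which shares no gene with this one but holds CYP3A4, also pericentral, fell in 7 chemicals, as given above, and how far the list differs from hepatocyte genes in general was not tested.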

How the data were processed

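The deposited table held raw counts per probe for 22069 rows, made by the authors from TempO-Seq reads. The submitters' processing notes name bcl2fastq 2.20.422, fastp 0.23.2, STAR 2.7.10b and DESeq2 1.38.0, and the genome build was not given in the sources used here. Of these, 1 row with a missing value was dropped, and 0 columns lacked a sample.

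For each chemical, counts were filtered (filterByExpr), scaled by TMM and fitted with edgeR 4.0.16 (quasi-likelihood) in R 4.3.3 over all features tested. DESeq2 1.42.0 was an alternative, and the scripts were tested on simulated data. SEs were the size of the log2 change divided by the root of F. Differences between chemicals were tested over 28 pairs and 15632 features together, and are given for members whose calls or whose batches all moved in opposite directions. Levels are CPM of the TMM effective library size, computed per chemical, which was 0.651 to 1.11 times the library total, and the floor was 3 counts per library, covering counting error only.

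Replicate numbers are HepaRG batches in the labels, so they pair the samples, but the main fits did not use this pairing. Batch as a block was an alternative. The median correlation of deviations was 0.0361 within a batch and -0.0154 between batches, both small. The labels do not say whether batches were independent cultures in other respects, so p-values measure the spread between these libraries.

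Members and gene lists were chosen with earlier results of these data known. Every member was named. Genes of other lists were named when called by trend in the same direction in at least 6 chemicals, and likeness was the 3 highest Pearson correlations over 40 group means among features with a mean of at least 10 counts, of which 1 is not reported here.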

Additional observations from a re-analysis of the deposited data

Results flagged for a closer look

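The results below compare the C5 minus C1 change (log2) between 2 chemicals. They cover members whose batches all moved in opposite directions in the 2 chemicals, or whose calls by trend or at C5 were opposite. Those that passed the test are given. Top concentrations differ between chemicals, so each value compares these exposures and not the compounds at a matched dose. Of the 18 differences, 8 are between chemicals on different plates, E and H, and the part of the plate in them was not tested.

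For DACT3_90228, every batch was higher at C5 than at C1 in the first chemical and lower in trichostatin A. In trichostatin A the mean was already low at C2 (0.154 CPM, against 3.12 CPM at C1), so the difference rests on the C1 level there. The difference from trichostatin A was 5.71 in apicidin (SE 1.06, edgeR adjusted p = 3.39e-05), 6.68 in mocetinostat (SE 1.05, edgeR adjusted p = 9.82e-07) and 4.69 in panobinostat (SE 1.12, edgeR adjusted p = 0.00205). It was 10.27 in scriptaid (SE 1.23, edgeR adjusted p = 2.66e-10) and 6.31 in tacedinaline (SE 1.09, edgeR adjusted p = 7.73e-06). Written as trichostatin A minus the other chemical, the DACT3_90228 difference was -6.25 for valproic acid (SE 1.10, edgeR adjusted p = 1.35e-05) and -6.97 for vorinostat (SE 1.12, edgeR adjusted p = 1.47e-06). The probe was near the floor in trichostatin A C5 and scriptaid C1, so these are fitted values and no bounds. The other probe, DACT3_88414, rose in 1 batch of trichostatin A, so it is not among the differences flagged here. Its difference from trichostatin A passed the test for mocetinostat (edgeR adjusted p = 0.017), scriptaid (0.00856), tacedinaline (0.00233) and vorinostat (0.0128). It did not pass for apicidin (0.073), panobinostat (0.0576) or valproic acid (0.0504).

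For DKK1, apicidin minus panobinostat gave -1.90 (SE 0.40, edgeR adjusted p = 0.000397) and apicidin minus valproic acid -1.53 (SE 0.41, edgeR adjusted p = 0.00687). Mocetinostat minus panobinostat gave -2.61 (SE 0.41, edgeR adjusted p = 7.81e-07), mocetinostat minus valproic acid -2.24 (SE 0.41, edgeR adjusted p = 2.81e-05) and scriptaid minus valproic acid -2.13 (SE 0.42, edgeR adjusted p = 0.000116). Panobinostat minus scriptaid gave 2.50 for DKK1 (SE 0.42, edgeR adjusted p = 4.02e-06) and panobinostat minus vorinostat 1.43 (SE 0.42, edgeR adjusted p = 0.0168). The rising side of these differences was not called by the main fit, with a C5 change of DKK1 of 0.61 in panobinostat and 0.26 in valproic acid. The C5 falls in apicidin, mocetinostat, scriptaid and vorinostat were called.

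RNF43 was called as a rise by trend in tacedinaline (higher at C5 in 2 of 3 batches) and as a fall at C5 in vorinostat. For RNF43, tacedinaline minus vorinostat gave 2.44 (SE 0.49, edgeR adjusted p = 0.000162) and trichostatin A minus vorinostat 2.58 (SE 0.49, edgeR adjusted p = 6.34e-05). The RNF43 change at C5 was 0.26 in tacedinaline and 0.34 in trichostatin A, neither of them called, against a called -2.14 in vorinostat. In trichostatin A the batch changes of RNF43 were 0.01, 0.03 and 0.76 (batches 1 to 3), the last from the C1 library that stood apart. For AXIN2, mocetinostat minus tacedinaline gave -3.38 (SE 1.14, edgeR adjusted p = 0.0477), although neither C5 change of AXIN2 was called by itself. For TCF7, apicidin minus mocetinostat gave -6.53 (SE 2.08, edgeR adjusted p = 0.0326), where TCF7 had no reads in apicidin C5, so the value is a fitted one and no bound.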

How the results depend on the processing

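Of the 45 calls of a member feature by trend or at C5, 25 kept their side of the threshold under every alternative and 0 changed direction. Calls lost were 14 without batch 1, 9 of 44 without batch 2, 9 without batch 3, 3 with batch as a block (replicate block), 3 of 44 with thinned libraries, 2 without the low-count filter, 1 each by DESeq2, by RLE scaling and with concentration level in place of log2 concentration (of 23), and 0 without the minimum fold. Without batch 1 or 2, panobinostat C3 and trichostatin A C4 kept 1 library, assumed to vary like the other groups.

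Panobinostat, with 0 member features, gave 1 by trend without the minimum fold, with RLE, with thinning, with concentration level and without batch 2, and 2 by DESeq2 and without the filter. At C5 it gave 1 with the replicate block, DESeq2, RLE, thinning and without batch 2, and 2 without the filter. Scriptaid gave 1 by trend, in place of 2, with the replicate block, by DESeq2 and without any 1 batch, and 5 at C5, in place of 3, by DESeq2. With 1 batch left out, the lowest counts were 3 for the mocetinostat trend (main 5), 2 for tacedinaline C5 (main 4), 0 to 1 for valproic acid C5 (main 2) and 3 for vorinostat C5 (main 6). Summed over chemicals, C2 gave 1 by DESeq2 and up to 2 without a batch (main 0), C3 fell to 1 without batch 2 and 4 without batch 1 (main 7), and C4 to 8 without batch 1 (main 15).

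The differences between chemicals, whose alternatives were chosen after seeing the data, all held with the replicate block (18 of 18). With a batch left out, AXIN2 in mocetinostat minus tacedinaline ran from -3.64 to -3.15 and TCF7 in apicidin minus mocetinostat from -6.60 to -6.37, lost in each case. DKK1 in apicidin minus valproic acid ran from -1.73 to -1.36 (lost without batch 2), and in panobinostat minus vorinostat from 1.25 to 1.44 (lost without batches 1 and 2). All 8 differences from trichostatin A held without batch 3 of its C1. NKD1, TCF7 and LGR5 had at most 15, 40 and 38 counts in a library, and depth limits what can be called for them.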
